A study of Mus musculus with 9 samples.

Results

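The set comprised 10 genes that mark blood vessel cells or the junctions that seal cells to each other: Pecam1, Cdh5, Cldn5, Tie1, Vwf, Emcn, Plvap, Eng, Ocln and Tjp1. They were taken by gene symbol from a table of 54532 mouse genes, and each symbol matched 1 row. Of the 10, 8 reached at least 1 FPKM (fragments per kilobase of gene, scaled to the depth of the library) in at least 3 of 9 libraries and were tested with 14086 genes in all. Cdh5 reached that level in 1 library and Vwf in 0, so these genes were not part of the main test. The tissue, as labelled, was choroidal-retinal flat mount from C57BL/6 mice, with 3 libraries in each of 3 groups. The BetP-Gel@Ran group was sampled 3 months after a gel was injected into the vitreous. Ranibizumab, an antibody fragment against VEGF-A, is named in the title of the series, whereas the sample titles carry only the suffix @Ran and the treatment field names the gel alone. Whether these mice also had CNV is not stated. The CNV group carries titles that refer to wet age-related macular degeneration, with no method or time of induction given. The untreated group is labelled as untreated mice, also without a sampling time, so time and treatment cannot be told apart. Whether each library stands for its own mouse, and how many eyes it held, is not stated. P-values therefore measure only the spread between libraries, and that spread may be technical.

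Endothelial cells line all blood vessels and are held together by adherens junctions, built on VE-cadherin, and by tight junctions, built on claudins and occludin. In the retina these tight junctions form the inner blood-retina barrier, whereas the capillaries of the choroid are fenestrated and leaky, and the outer barrier lies in the retinal pigment epithelium. Occludin and the scaffold protein ZO-1, encoded by Ocln and Tjp1, serve the tight junctions of epithelia as well as those of endothelium. The comparisons address whether the vessel content of the tissue differed between the groups. In bulk tissue, fewer endothelial cells and less RNA per endothelial cell cannot be told apart.

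The libraries held 16990118 to 18753737 reads on genes. All 12 markers of the pigment epithelium, which lies in the labelled tissue, were read in every library, and so were genes of neighbouring tissues. A list of 14 skeletal muscle genes summed to 1483 to 1731 FPKM in BetP-Gel@Ran, 1012 to 1737 FPKM in CNV and 5732 to 6387 FPKM in untreated libraries. A list of 15 cornea and surface epithelium genes summed to 13719 to 16544 FPKM in BetP-Gel@Ran, 9859 to 11010 FPKM in CNV and 18653 to 21602 FPKM in untreated libraries. A few abundant genes dominate the second sum, Aldh3a1 as well as keratins. Aldh3a1 averaged 4383 FPKM in BetP-Gel@Ran, 1821 in CNV and 6055 in untreated libraries, and Krt5 averaged 4396, 3087 and 5839 FPKM. Single genes of that list went both ways. In CNV against untreated 2 rose and 7 fell, 60% of the list, beside 44.6% of all tested genes. Epcam was higher, at 33.02 ± 5.97 FPKM in CNV and 14.3 ± 1.54 in untreated libraries (SD, n = 3 each, limma adjusted p = 2.86e-04). In BetP-Gel@Ran against untreated 1 rose, 2 fell and 12 of the 15 did not pass, with 1 to 6 calls when single libraries were left out. There 20% of the list passed, beside 34.2% of all tested genes. The part of these tissues in the values below was not tested.

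Promoter sequences from RefSeq (GRCm38.p6) were matched for 6 of the 10 genes, Eng, Emcn, Tie1, Tjp1, Ocln and Cldn5. The windows span the 250 bases before the annotated start, which for Tjp1 lies within the gene span of the deposited table. The windows of Emcn, Tie1 and one of the Ocln starts also run partly into that span. Those of Cldn5 and Tjp1 are shown because these were the members that passed the test between groups, and those of Eng and Emcn because they carry the motif searched for. That motif is AGGAAG, one flanked form of the GGAA core bound by ETS factors such as ERG, which drive many endothelial genes; it was searched on both strands (CTTCCT on the other) and its matches are in capitals.
Cldn5 (chr16:18776597-18776846, plus strand): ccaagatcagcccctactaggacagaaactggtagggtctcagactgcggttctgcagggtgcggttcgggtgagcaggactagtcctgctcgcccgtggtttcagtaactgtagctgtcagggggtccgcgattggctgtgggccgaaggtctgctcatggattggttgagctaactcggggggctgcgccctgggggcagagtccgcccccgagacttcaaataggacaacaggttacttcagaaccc
Tjp1 (chr7:65371245-65371494, minus strand): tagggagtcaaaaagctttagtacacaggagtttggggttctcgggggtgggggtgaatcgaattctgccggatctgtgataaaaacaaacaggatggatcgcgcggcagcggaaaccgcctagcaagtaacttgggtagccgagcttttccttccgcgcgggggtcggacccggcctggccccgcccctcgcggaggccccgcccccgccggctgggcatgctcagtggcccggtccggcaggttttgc
Eng (chr2:32646345-32646594, plus strand): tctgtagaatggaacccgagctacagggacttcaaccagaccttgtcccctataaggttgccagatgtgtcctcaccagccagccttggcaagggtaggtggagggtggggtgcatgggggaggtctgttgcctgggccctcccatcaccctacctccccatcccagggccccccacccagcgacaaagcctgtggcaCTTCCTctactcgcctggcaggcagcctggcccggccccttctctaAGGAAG
Emcn (chr3:137340828-137341077, plus strand): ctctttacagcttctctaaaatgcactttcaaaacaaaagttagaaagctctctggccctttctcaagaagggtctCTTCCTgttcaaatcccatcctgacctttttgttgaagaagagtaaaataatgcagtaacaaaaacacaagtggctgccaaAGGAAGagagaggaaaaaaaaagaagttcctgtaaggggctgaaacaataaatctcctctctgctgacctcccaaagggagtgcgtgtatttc
The motif was found 2 times in the Eng window and 2 times in the Emcn window, and 1 time in the Tie1 window. It was not found in the windows of Cldn5, Tjp1 or Ocln, which has 2 annotated starts. For comparison, 29.5% of 32841 mouse promoter windows of this length held it. These are matches of letters, and a window without one says nothing about the factor. Windows without this form can hold the GGAA core with other flanks, as that of Tjp1 does.

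Expression per length ran from Tjp1 at the top to Vwf at the bottom. Averaged over the 9 libraries, Tjp1 stood at 37.5 FPKM, Ocln at 8.95, Plvap at 5.28, Eng at 4.18 and Cldn5 at 3.74 FPKM. Tie1, Pecam1, Emcn, Cdh5 and Vwf followed at 1.30, 1.26, 1.04, 0.877 and 0.443 FPKM. Neighbours in this order mostly overlapped over libraries. Tjp1, at 26.9 to 51.5 FPKM, was clear of Ocln, at 6.98 to 11.6 FPKM, whereas the ranges of Plvap (3.50 to 7.75), Eng (3.76 to 4.82) and Cldn5 (2.87 to 5.03 FPKM) lay across each other. Tie1, Pecam1 and Emcn likewise overlapped, at 0.719 to 2.41, 0.877 to 1.78 and 0.737 to 1.24 FPKM. Tjp1 exceeded 89.4% of the tested genes in mean level, Plvap 49.7%, Eng 42.3%, Cldn5 38.8% and Emcn 5.04%. The 8 genes other than Ocln and Tjp1 had 46 reads (Cdh5 in BetP-Gel@Ran replicate 3) to 357 reads (Eng in CNV replicate 1) per library. E-cadherin, the epithelial counterpart of VE-cadherin encoded by Cdh1, averaged 24.6 ± 0.582 FPKM in BetP-Gel@Ran, 23.2 ± 5.54 in CNV and 17.3 ± 3.62 in untreated libraries (SD, n = 3 each), against 1.07 ± 0.495, 0.814 ± 0.158 and 0.744 ± 0.0245 FPKM for Cdh5. How much of the signal of Ocln and Tjp1 came from vessels was not tested.

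**Figure D1:**
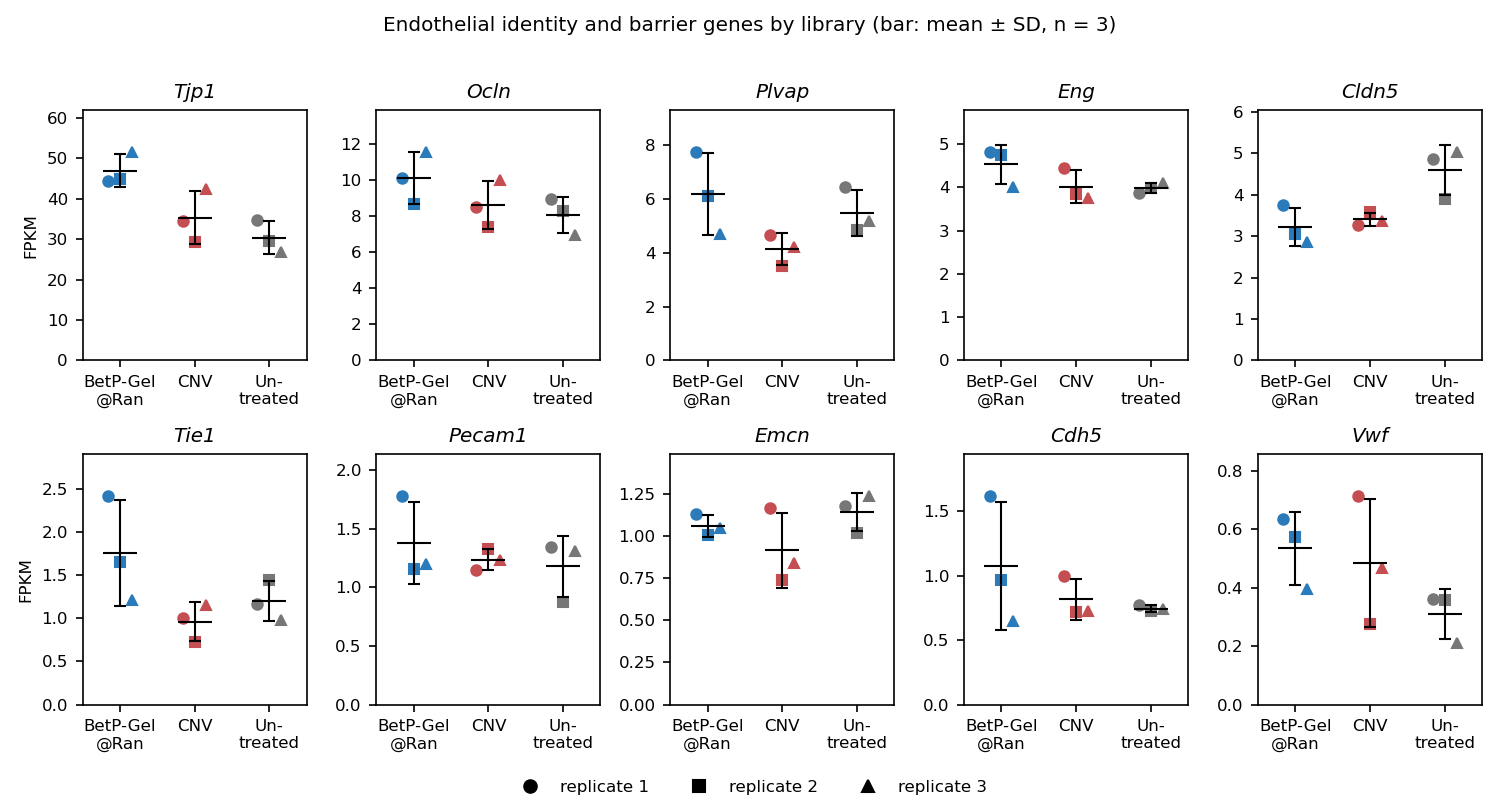
FPKM of the 10 genes in each library, ordered by mean level, with BetP-Gel@Ran left, CNV in the middle and untreated right; symbols mark the replicate, bars the mean and SD (n = 3), and each panel has its own axis from 0. Tjp1 was higher in all 3 BetP-Gel@Ran libraries than in any other library, Cldn5 was higher in all 3 untreated libraries than in any other, and most other genes overlapped between groups.

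Of the junction genes, Tjp1 rose and Cldn5 fell in BetP-Gel@Ran against untreated, and Ocln passed in no comparison. Tjp1 (ENSMUSG00000030516, chr7:65296165-65527781 on mm10, minus strand), the ZO-1 scaffold that ties claudins and occludin to actin, had 44.3, 44.9 and 51.5 FPKM in BetP-Gel@Ran libraries. It had 34.5, 29.2 and 42.3 FPKM in CNV libraries, and 34.7, 29.6 and 26.9 FPKM in untreated libraries. All 3 BetP-Gel@Ran values lay above those of both other groups, which overlapped each other. Against untreated, Tjp1 rose 1.54-fold in mean FPKM, by 0.61 ± 0.14 (SE) on the log2(FPKM + 1) scale, with limma adjusted p = 0.00925. Against CNV the difference was 0.41 ± 0.14 and did not pass the test (limma adjusted p = 0.0781; 95% interval 0.10 to 0.73); it passed when CNV replicate 3, the highest CNV library, was left out (0.55, adjusted p = 0.0167). Over all 21 alternatives that adjusted p was 0.0167 to 0.235. CNV against untreated gave 0.20 ± 0.14 (limma adjusted p = 0.266).

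Cldn5 (ENSMUSG00000041378, chr16:18776847-18778262 on mm10, plus strand) encodes claudin-5, the main sealing claudin of endothelial tight junctions. It had 3.75, 3.05 and 2.87 FPKM in BetP-Gel@Ran libraries, 3.28, 3.58 and 3.37 FPKM in CNV libraries, and 4.87, 3.90 and 5.03 FPKM in untreated libraries. Every untreated library was above every library of the other groups, although untreated replicate 2 was close to BetP-Gel@Ran replicate 1. Cldn5 fell in both, to 0.701 times the untreated mean in BetP-Gel@Ran libraries (log2 difference -0.41 ± 0.11, limma adjusted p = 0.0163) and to 0.742 times in CNV libraries (-0.34 ± 0.11, limma adjusted p = 0.0265). These comparisons share the untreated libraries and are not independent. Only 69 to 117 reads per library lay behind these values, so that counting alone gave an error of 9.53% to 11.2% of the mean. The calls were narrow. With limma voom on the recovered reads, a log2 difference of -0.51 in BetP-Gel@Ran and of -0.42 in CNV, each against untreated, had adjusted p = 0.0508 and 0.0757. Over all 20 alternatives the adjusted p was 0.0101 to 0.0661 in BetP-Gel@Ran and 0.0121 to 0.0863 in CNV. With BetP-Gel@Ran against untreated, the adjusted p was 0.053 and 0.0661 without BetP-Gel@Ran replicate 2 or 3, and 0.0583 and 0.0525 without untreated replicate 1 or 3. With CNV against untreated it was 0.0764 and 0.0557 without CNV replicate 1 or 3, and 0.0863 and 0.0835 without untreated replicate 1 or 3. BetP-Gel@Ran against CNV gave -0.068 ± 0.11 (limma adjusted p = 0.692; 95% interval -0.31 to 0.17).

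Ocln, the tight junction membrane protein occludin, had 10.2, 8.66 and 11.6 FPKM in BetP-Gel@Ran libraries, 8.50, 7.40 and 10.02 in CNV libraries and 8.99, 8.27 and 6.98 in untreated libraries. The groups overlapped. No comparison passed the test (limma adjusted p = 0.118 to 0.642), with 0.29 ± 0.13 in BetP-Gel@Ran against untreated, a 95% interval of -0.0076 to 0.59. In profile over the 9 libraries, after centring on each gene's mean, Ocln was nearest to Tjp1 among the tested members, with a root mean square difference of 0.15 on the log2 scale. The farthest pair was Cldn5 and Tjp1, at 0.47.

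The adhesion and cell surface markers of endothelium overlapped between groups. Pecam1 (CD31, an adhesion molecule of endothelium, platelets and leukocytes) had 1.78, 1.16 and 1.20 FPKM in BetP-Gel@Ran libraries, 1.15, 1.33 and 1.23 in CNV libraries and 1.34, 0.877 and 1.31 in untreated libraries. Its log2 difference was 0.045 ± 0.13 in CNV against untreated (limma adjusted p = 0.804; 95% interval -0.25 to 0.34) and 0.12 ± 0.13 in BetP-Gel@Ran against untreated (limma adjusted p = 0.488; -0.17 to 0.42). Emcn encodes endomucin, a sialomucin of capillaries and veins. It had 1.13, 1.00 and 1.04 FPKM in BetP-Gel@Ran libraries, 1.17, 0.737 and 0.843 in CNV libraries and 1.18, 1.02 and 1.24 in untreated libraries, with limma adjusted p = 0.232 to 0.710. In the BetP-Gel@Ran libraries its spread of 6.02% of the mean was no larger than the 9.98% that counting alone gives.

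Cdh5 encodes VE-cadherin, the adhesion protein of endothelial adherens junctions. It had 1.62, 0.962 and 0.644 FPKM in BetP-Gel@Ran libraries, 0.997, 0.719 and 0.727 in CNV libraries and 0.771, 0.723 and 0.737 in untreated libraries. The untreated libraries were close together, and the BetP-Gel@Ran libraries spread over a range that took in all the others. Vwf encodes von Willebrand factor, a clotting protein stored in endothelium and platelets. It had 0.636, 0.572 and 0.396 FPKM in BetP-Gel@Ran libraries, 0.713, 0.277 and 0.467 in CNV libraries and 0.359, 0.358 and 0.212 in untreated libraries. All 3 BetP-Gel@Ran values of Vwf were above the untreated ones. With limma voom on 17594 genes with at least 10 reads in 3 libraries, a test added after the data were seen, Vwf was at a log2 difference of 0.79 ± 0.35 in BetP-Gel@Ran against untreated and did not pass (adjusted p = 0.114). Cdh5 was at 0.43 ± 0.30 in that comparison (limma voom adjusted p = 0.307).

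The receptor genes of endothelium were Tie1 and Eng. Tie1, an orphan receptor that modulates angiopoietin signalling through Tie2, had 2.41, 1.64 and 1.21 FPKM in BetP-Gel@Ran libraries, 1.01, 0.719 and 1.16 in CNV libraries and 1.16, 1.44 and 0.983 in untreated libraries. The BetP-Gel@Ran libraries were all above the CNV ones, the lowest of them by little. The mean ratio was 1.83 and the log2 difference 0.47 ± 0.16, which did not pass (limma adjusted p = 0.0822; 95% interval 0.10 to 0.85), and without BetP-Gel@Ran replicate 1 it was 0.31. Eng, or endoglin, a coreceptor for TGF-beta family ligands in endothelium and activated macrophages, had 4.82, 4.76 and 4.01 FPKM in BetP-Gel@Ran libraries, 4.45, 3.84 and 3.76 in CNV libraries and 3.87, 3.98 and 4.10 in untreated libraries. It varied least of the tested members, with a root mean square of 0.10 about its mean on the log2 scale. The log2 difference of CNV against untreated was 0.0077 ± 0.085 (limma adjusted p = 0.951; 95% interval -0.18 to 0.20). Eng overlaps Fpgs and Plvap overlaps Gtpbp3 in the genome, and the labels do not say whether counting used the strand, so some of their reads may belong to these neighbours.

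Plvap encodes the protein that forms the diaphragms of fenestrae and is characteristic of leaky vessels such as the choriocapillaris. It had 7.75, 6.13 and 4.71 FPKM in BetP-Gel@Ran libraries, 4.67, 3.50 and 4.24 in CNV libraries and 6.46, 4.85 and 5.18 in untreated libraries. The CNV values lay below those of both other groups, while the BetP-Gel@Ran and untreated values overlapped. Neither difference passed the test: 0.47 ± 0.16 in BetP-Gel@Ran against CNV (limma adjusted p = 0.0793) and -0.34 ± 0.16 in CNV against untreated (limma adjusted p = 0.117). Without BetP-Gel@Ran replicate 1 the difference from CNV was 0.32. In profile, Plvap and Tie1 were each other's nearest member, at a root mean square difference of 0.16.

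**Figure D2:**
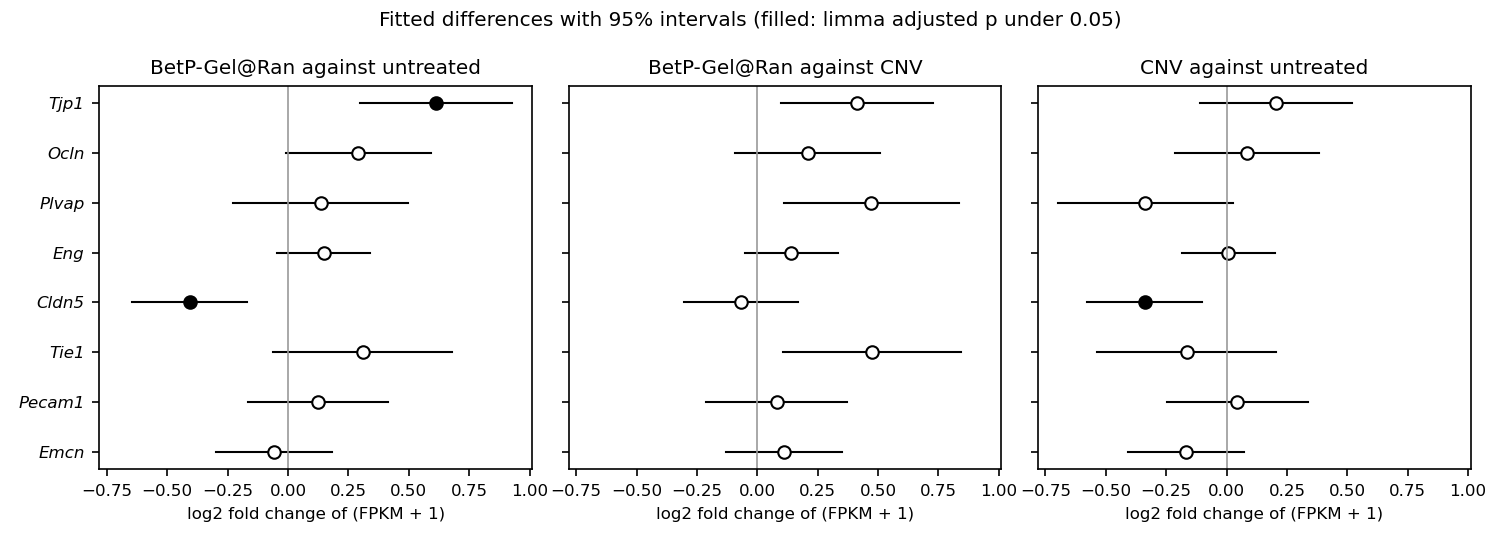
Fitted log2 differences of (FPKM + 1) for the 8 tested genes in each comparison, with 95% intervals; filled points passed the test. The filled points are Tjp1 and Cldn5 in BetP-Gel@Ran against untreated and Cldn5 in CNV against untreated, and none in BetP-Gel@Ran against CNV.

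Counted over the set, few members passed. In CNV against untreated, 0 of the 8 tested members rose and 1 fell, where 44.6% of all tested genes passed (22.5% higher and 22.1% lower). Between BetP-Gel@Ran and untreated, 1 rose and 1 fell, beside 34.2% of all tested genes (16.1% higher and 18.1% lower). Between BetP-Gel@Ran and CNV, 0 of 8 passed limma, beside 14.1% of all tested genes (5.81% higher and 8.27% lower), and limma voom called 0 of the 8, beside 2352 of 14086 genes. An unadjusted p under 0.05 was found for 1, 2 and 3 of the 8 members in these comparisons in turn, beside 52.5%, 45.2% and 32.1% of all tested genes. Groups did not overlap for 2, 2 and 3 of the 8 members, beside 54.4%, 50.7% and 36.9% of all tested genes. The median log2 difference of the members was -0.079 in CNV against untreated, 0.14 in BetP-Gel@Ran against untreated and 0.17 in BetP-Gel@Ran against CNV. Over all tested genes the medians were 0.0057, -0.0058 and 0.00048. These shares describe the set, and the set was not compared with the other genes by a test.

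The vascular genes, taken without Ocln and Tjp1, summed to 23.9, 19.3 and 16.1 FPKM in BetP-Gel@Ran libraries, 17.4, 14.7 and 15.8 in CNV libraries and 20.0, 17.1 and 18.8 in untreated libraries. The 3 groups overlapped in this sum. It stood for 0.00578% to 0.00868% of reads in BetP-Gel@Ran, 0.00520% to 0.00698% in CNV and 0.00570% to 0.00618% in untreated libraries. BetP-Gel@Ran replicate 1 was the highest BetP-Gel@Ran library for all 8 of these genes and the highest of the 9 libraries for 5. Ratios within a library do not depend on how libraries were scaled. The FPKM of Plvap over that of Cldn5 was 2.07, 2.01 and 1.64 in BetP-Gel@Ran libraries, 1.43, 0.977 and 1.26 in CNV libraries and 1.33, 1.24 and 1.03 in untreated libraries. It was higher in each BetP-Gel@Ran library than in any other. Cldn5 over Eng was 0.777, 0.641 and 0.715 in BetP-Gel@Ran libraries, 0.737, 0.932 and 0.896 in CNV libraries and 1.26, 0.980 and 1.23 in untreated libraries, highest in each untreated one. The other ratios of vascular genes overlapped between BetP-Gel@Ran and untreated libraries. Plvap over Eng was 1.17 to 1.61 in BetP-Gel@Ran, 0.910 to 1.13 in CNV and 1.22 to 1.67 in untreated libraries. Tie1 over Pecam1 was 1.01 to 1.42 in BetP-Gel@Ran, 0.542 to 0.939 in CNV and 0.748 to 1.65 in untreated libraries. Tie1 over Eng was 0.301 to 0.501 in BetP-Gel@Ran, 0.187 to 0.307 in CNV and 0.240 to 0.363 in untreated libraries. Tjp1 over Ocln was 4.36 to 5.18 in BetP-Gel@Ran, 3.95 to 4.22 in CNV and 3.58 to 3.86 in untreated libraries, with no overlap. All 6 ratios were chosen with earlier results known and are given without a test.

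**Figure D3:**
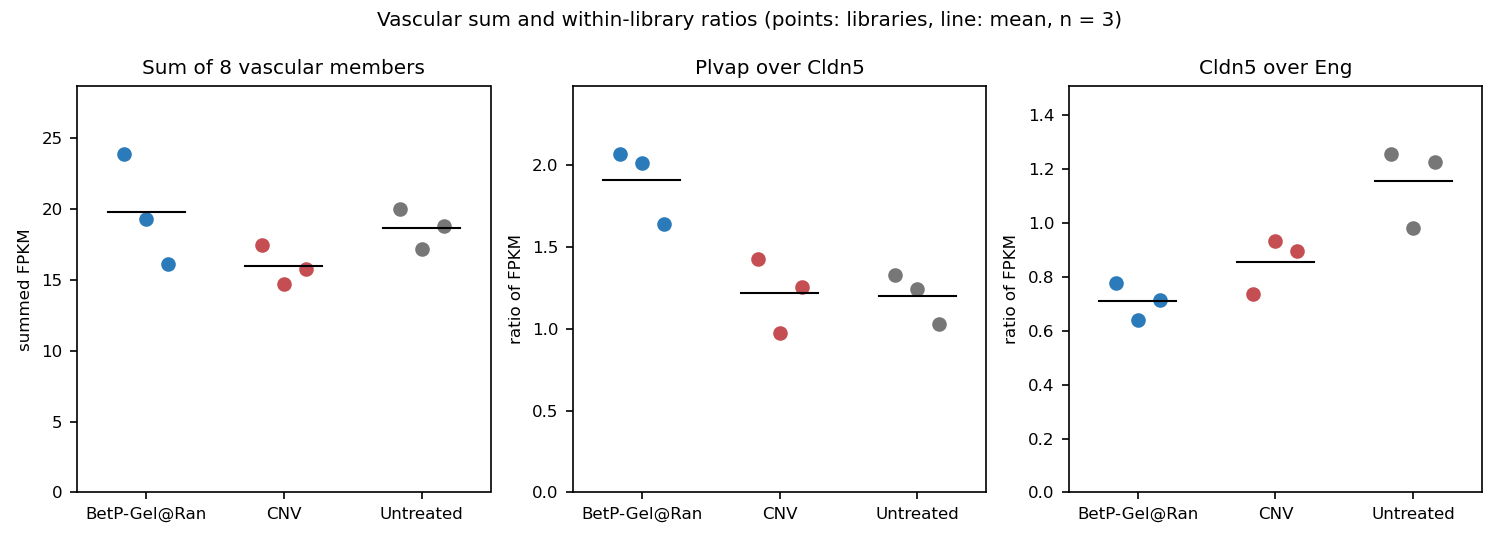
Left, summed FPKM of the 8 vascular genes; middle, Plvap FPKM over Cldn5 FPKM; right, Cldn5 FPKM over Eng FPKM; points are libraries (BetP-Gel@Ran, CNV, untreated from left to right) and lines means (n = 3). The sums overlap, the middle ratio is at least 1.64 in BetP-Gel@Ran and at most 1.43 elsewhere, and the right ratio is at least 0.980 in untreated and at most 0.932 elsewhere.

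Other endothelial genes held calls in both directions, with more rises than falls against untreated. Of 32 listed genes, 16 were tested. The 32 summed to 109, 100 and 102 FPKM in BetP-Gel@Ran libraries, 123, 103 and 114 FPKM in CNV libraries and 98.6, 95.5 and 99.3 FPKM in untreated libraries. Every untreated library lay below every other library in this sum, which was not tested. The sum is weighted to abundant genes. Ly6c1 averaged 30.8 FPKM in BetP-Gel@Ran, 42.7 in CNV and 29.3 in untreated libraries. Lmo2 averaged 13.4, 15.4 and 10.5 FPKM in the same order, whereas Cd34 averaged 20.8, 17.1 and 21.4 FPKM. Which cells the values of this list came from, those of the genes named below included, was not tested. In CNV against untreated 6 rose and 1 fell, with a median log2 difference of -0.0019. Those that rose included Cd93 (2.01 ± 0.794 FPKM in CNV and 0.162 ± 0.0896 in untreated libraries, limma adjusted p = 3.64e-04) and Fli1 (limma adjusted p = 0.00119), which leukocytes express too, and Ecscr, a regulator of endothelial migration (limma adjusted p = 9.28e-04), and S1pr1, a sphingosine 1-phosphate receptor (limma adjusted p = 0.00378). Erg, an ETS factor of endothelium, fell to 3.97 ± 0.0675 FPKM in CNV, against 7.53 ± 1.82 in untreated libraries (limma adjusted p = 0.00466). After the gel, 4 rose and 1 fell against untreated (median 0.18). Flt1, the VEGF receptor 1 gene, rose to 1.62 ± 0.113 FPKM in BetP-Gel@Ran, against 0.850 ± 0.0916 in untreated libraries (limma adjusted p = 0.00433), and Erg fell to 4.46 ± 0.909 FPKM (limma adjusted p = 0.0151). Fli1 and Cd93 rose as well (log2 0.62 and 0.70; limma adjusted p = 0.00783 and 0.0155), and Cd93 lost its call without BetP-Gel@Ran replicate 1 (adjusted p = 0.0529). Against CNV, 1 rose and 3 fell in BetP-Gel@Ran libraries (median 0.072), the rise being Flt1, which had 0.772 ± 0.128 FPKM in CNV libraries (limma adjusted p = 0.0105). The 3 that fell were Ecscr, Ly6c1 and Cd93, with limma adjusted p = 0.0238, 0.0323 and 0.0431. Ecscr lost its call without BetP-Gel@Ran replicate 2 or 3 or CNV replicate 1 or 2 (adjusted p = 0.0693 to 0.0861). Ly6c1 lost it without any of the 3 BetP-Gel@Ran libraries or without CNV replicate 1 (0.0542 to 0.108), and Cd93 without any library other than CNV replicate 3 (0.0521 to 0.125). Shares passing were 43.8%, 31.2% and 25% of the tested list in CNV against untreated, BetP-Gel@Ran against untreated and BetP-Gel@Ran against CNV, beside 44.6%, 34.2% and 14.1% of all tested genes, so the first 2 were near the share of all genes.

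Genes of the retinal barrier and of Norrin signalling, which builds that barrier through Fzd4 and Tspan12, included calls in both directions. The part of endothelium in the values of these genes was not tested. Of 15 tested, 5 rose and 4 fell in CNV against untreated, 3 rose and 2 fell in BetP-Gel@Ran against untreated, and 1 rose and 3 fell in BetP-Gel@Ran against CNV. These were 60%, 33.3% and 26.7% of the list, beside 44.6%, 34.2% and 14.1% of all tested genes. Mfsd2a, the lipid transporter that restrains transcytosis at the barrier, had 0.914 ± 0.136 FPKM in BetP-Gel@Ran, 2.80 ± 0.647 in CNV and 0.655 ± 0.136 in untreated libraries. It rose in CNV against untreated (limma adjusted p = 1.32e-04) and fell in BetP-Gel@Ran against CNV (limma adjusted p = 0.00493). Abcg2, an efflux pump, fell in CNV (log2 -0.56) and in BetP-Gel@Ran (-0.31), each against untreated (limma adjusted p = 8.46e-04 and 0.0246). The second call was lost without BetP-Gel@Ran replicate 1 or 3 or untreated replicate 1 or 2 (adjusted p = 0.0575 to 0.0876). Slc7a5, an amino acid transporter, fell in CNV and in BetP-Gel@Ran, each against untreated (log2 -0.93 and -0.70; limma adjusted p = 4.02e-04 and 0.00320). Tspan12 rose in both (0.36 and 0.34; limma adjusted p = 0.0106 and 0.0193), the second call being lost without BetP-Gel@Ran replicate 1 or untreated replicate 1 or 3 (adjusted p = 0.0545 to 0.0601). In BetP-Gel@Ran against CNV, the glucose transporter gene Slc2a1 and the Norrin receptor gene Fzd4 fell (-0.71 and -0.36; limma adjusted p = 0.0315 and 0.0424), and Apcdd1, a Wnt inhibitor, rose (0.39, limma adjusted p = 0.0317). These 3 calls were narrow. Slc2a1 lost its call without any BetP-Gel@Ran library or without CNV replicate 1 or 2 (adjusted p = 0.0521 to 0.1002), Fzd4 without any library other than CNV replicate 3 or untreated replicate 3 (0.0531 to 0.142), and Apcdd1 without BetP-Gel@Ran replicate 2 or 3 or CNV replicate 2 (0.0874 to 0.111). The counts depended on single libraries. Without CNV replicate 2 or untreated replicate 2, 4 genes passed in CNV against untreated. Between BetP-Gel@Ran and untreated, 3 passed without BetP-Gel@Ran replicate 1 or 3 or untreated replicate 2, and 2 without untreated replicate 1. Between BetP-Gel@Ran and CNV, 2 passed without BetP-Gel@Ran replicate 1 or CNV replicate 1, and 1 without BetP-Gel@Ran replicate 2 or 3 or CNV replicate 2.

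Of 8 genes linked to fenestrated or activated capillaries, 5 were tested. In CNV against untreated 4 rose, which were Esm1, a gene of sprouting endothelium (log2 1.04, limma adjusted p = 8.77e-04), the caveolin gene Cav1 (0.46, limma adjusted p = 0.00769), Igfbp3 (2.21, limma adjusted p = 0.00189) and Nrp1, a VEGF coreceptor (0.60, limma adjusted p = 4.58e-04). In BetP-Gel@Ran against untreated 2 rose and 0 fell: Nrp1 (0.49, limma adjusted p = 0.00253) and Cav1 (0.55, limma adjusted p = 0.00472). Esm1 and Igfbp3 did not pass there, although all BetP-Gel@Ran values lay below the untreated ones. Esm1 had 0.708 to 0.983 against 1.15 to 1.69 FPKM, and Igfbp3 2.32 to 4.61 against 4.93 to 5.74 FPKM. The list's median log2 difference was 0.60 in CNV and -0.29 in BetP-Gel@Ran, each against untreated, and -0.11 in BetP-Gel@Ran against CNV. Esm1 and Igfbp3 fell in BetP-Gel@Ran against CNV, by 1.46 and 2.72 on the log2 scale (limma adjusted p = 0.00186 and 0.00720). In CNV against untreated 80% of the 5 passed, beside 44.6% of all tested genes. The share was 40% in BetP-Gel@Ran against untreated and 40% in BetP-Gel@Ran against CNV, beside 34.2% and 14.1% of all tested genes. Car4, a choriocapillaris carbonic anhydrase, was at 0 in some libraries and was not tested. It averaged 0.0481 FPKM in BetP-Gel@Ran, 0.0660 in CNV and 0.218 in untreated libraries, on at most 10 reads per library. Gpihbp1, also below the filter, averaged 0.336, 0.538 and 0.943 FPKM in the same order, and Aplnr 0.139, 0.391 and 0.0657 FPKM. Which cells the values of this list came from was not tested.

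Among 27 tested genes of other tight and adherens junctions, 5 rose and 5 fell in CNV against untreated, 7 rose and 3 fell in BetP-Gel@Ran against untreated, and 2 rose in BetP-Gel@Ran against CNV. The list had 37%, 37% and 7.41% called, beside 44.6%, 34.2% and 14.1% of all tested genes. Its medians were -0.0053, 0.18 and 0.10 on the log2 scale. Cgnl1, the junction adaptor paracingulin, rose in CNV and in BetP-Gel@Ran, each against untreated (log2 0.75 and 0.85; limma adjusted p = 1.34e-04 and 1.55e-04). In CNV against untreated, Jam2, a junctional adhesion molecule, and Cldn7, an epithelial claudin, fell (-0.61 and -0.50; limma adjusted p = 0.00104 and 0.0109), and Marveld3, a relative of occludin, rose (0.49, limma adjusted p = 0.00466). Ctnnd1, the p120-catenin gene, rose in BetP-Gel@Ran against untreated (0.51, limma adjusted p = 0.00310). Ctnnb1, the beta-catenin of adherens junctions, rose in BetP-Gel@Ran against untreated (log2 0.28, limma adjusted p = 0.0124), a call lost without BetP-Gel@Ran replicate 3 (adjusted p = 0.0597). Cldn1, the claudin-1 gene of surface epithelia, fell by 0.57 in the same comparison (limma adjusted p = 0.0133). The count of 10 in BetP-Gel@Ran against untreated was 4 without BetP-Gel@Ran replicate 3 and 5 without untreated replicate 3. Against CNV the 2 were Cgn, the cingulin gene (0.47, limma adjusted p = 0.0248), and Jam2 (0.36, limma adjusted p = 0.0412). There the count was 11 without CNV replicate 3, 1 without BetP-Gel@Ran replicate 1 or untreated replicate 2, and 0 without BetP-Gel@Ran replicate 2 or 3 or CNV replicate 1 or 2.

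Marker genes of other cell types that share some of these genes also differed between groups. All 14 macrophage and microglia genes rose in CNV and in BetP-Gel@Ran, each against untreated, where 22.5% and 16.1% of all tested genes rose. The sum of the 14 was 872 to 1120 FPKM in BetP-Gel@Ran, 1571 to 2314 FPKM in CNV and 451 to 486 FPKM in untreated libraries. Platelet genes, 11 in all, summed to 40.2 to 51.4 FPKM in BetP-Gel@Ran, 73.7 to 185 FPKM in CNV and 25.6 to 27.6 FPKM in untreated libraries. Most of that was Pf4, which rose in CNV against untreated (limma adjusted p = 2.99e-04) and was the only 1 of the 2 tested platelet genes to pass. In BetP-Gel@Ran against untreated 0 of 2 passed, Pf4 having limma adjusted p = 0.0559 and an unadjusted p of 0.0198. Gp1bb was at 0 in all libraries, and Gp5 and Gp6 were at 0 in some. Platelet genes below the filter went both ways between CNV and untreated libraries. Gp1ba had 0.333 ± 0.114 FPKM in CNV and 0.526 ± 0.177 in untreated libraries, whereas Gp9 had 0.976 ± 0.727 and 0.247 ± 0.140 FPKM. Gp9 rested on 8 to 28 reads per CNV library and 2 to 6 reads per untreated library. The part of macrophages and platelets in the values of Pecam1, Vwf and Eng was not tested, nor was the cell source of Pf4.

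Pericytes and smooth muscle wrap the vessels that endothelium lines, and their 14 genes summed to 125 to 149 FPKM in BetP-Gel@Ran, 151 to 232 FPKM in CNV and 188 to 225 FPKM in untreated libraries. This sum is weighted to abundant genes. Des, the desmin gene, which skeletal muscle expresses too, averaged 21.6 FPKM in BetP-Gel@Ran, 22.2 in CNV and 76.2 in untreated libraries. Acta2 averaged 69.8, 103 and 89.6 FPKM in the same order. Of the 10 tested, 2 rose and 3 fell in BetP-Gel@Ran against untreated, and 2 rose and 1 fell in CNV against untreated. These were 50% and 30% of the tested list, beside 34.2% and 44.6% of all tested genes. In BetP-Gel@Ran against CNV 1 rose and 0 fell, 10% of the list beside 14.1% of all tested genes. That gene, Rgs5, lost its call without any library other than BetP-Gel@Ran replicate 1 or CNV replicate 3 (limma adjusted p = 0.0508 to 0.144). The 5 calls in BetP-Gel@Ran against untreated were 3 without BetP-Gel@Ran replicate 2 or untreated replicate 3. Anpep rose in BetP-Gel@Ran and in CNV, at means of 6.59 and 5.94 FPKM against 3.23 in untreated libraries. Notch3 rose in BetP-Gel@Ran against untreated, by 0.54 to 0.69 on the log2 scale with libraries left out. Cnn1 fell there (-0.91 to -0.61), a call lost without BetP-Gel@Ran replicate 2 or 3 or untreated replicate 1 or 3. Des fell by 1.79 in BetP-Gel@Ran and by 1.74 in CNV against untreated (limma adjusted p = 6.86e-05 and 3.40e-05). All 12 tested skeletal muscle genes fell in both of these comparisons, where 18.1% (BetP-Gel@Ran) and 22.1% (CNV) of all tested genes fell. Lymphatic genes summed to 58.5 to 76.5 FPKM in BetP-Gel@Ran, 92.8 to 116 FPKM in CNV and 60.2 to 66.3 FPKM in untreated libraries, mostly from Pdpn, which epithelia and glia express too. Genes of red blood cells, which vessels carry, summed to 3407 to 11701 FPKM in BetP-Gel@Ran, 6421 to 19409 FPKM in CNV and 3508 to 5451 FPKM in untreated libraries. Pigment epithelium genes, whose cells form tight junctions of their own, summed to 957 to 1024 FPKM in BetP-Gel@Ran, 959 to 1394 FPKM in CNV and 933 to 1333 FPKM in untreated libraries. The part of pigment and surface epithelium in the values of Ocln and Tjp1 was not tested. Leukocyte adhesion genes summed to 29.6 to 35.5 FPKM in BetP-Gel@Ran, 37.9 to 43.6 FPKM in CNV and 22.1 to 24.1 FPKM in untreated libraries, with Sele and Selp, the selectins of activated endothelium, at 0 in some libraries.

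**Figure D4:**
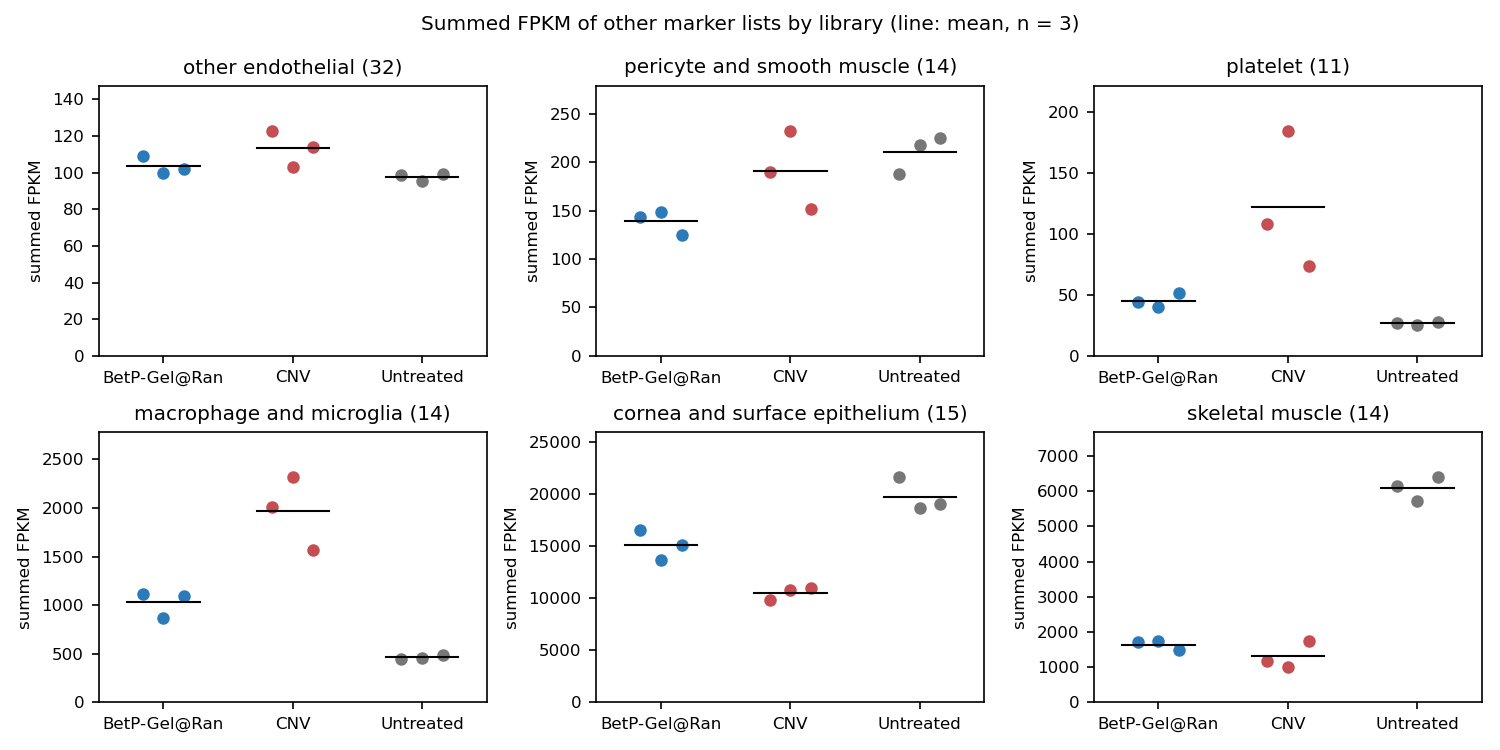
Summed FPKM of 6 other marker lists in each library (number of genes in brackets), with BetP-Gel@Ran left, CNV in the middle and untreated right; points are libraries and lines means (n = 3). Macrophage and platelet sums are highest in CNV libraries and lowest in untreated ones, the platelet sum being mostly Pf4. Muscle sums are highest in untreated libraries. The sum of 32 other endothelial genes, which is weighted to abundant genes, is 95.5 to 99.3 FPKM in untreated libraries, below all BetP-Gel@Ran and CNV libraries.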

How the data were processed

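The authors deposited FPKM for 9 libraries in 1 table with gene names, mm10 coordinates and gene lengths, per the file headers. Per the labels' protocols, mRNA was bound to poly-T beads and a NEBNext Ultra kit was used. Counting per gene was with HTSeq 0.6.0 on mm10, per the submitters' processing notes. The aligner was not given in these sources.

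Of these genes, those reaching 1 FPKM in 3 or more libraries were fitted as log2(FPKM + 1) in limma 3.58.1, with a mean for each group over all libraries and the trend and robust options. Two-sided p-values were adjusted by Benjamini-Hochberg over the tested genes of each comparison (threshold 0.05). A difference on this scale understates the change of low genes. FPKM times length came in whole steps for 100% of values (tolerance 0.05), which gave the reads behind each value for limma voom. Errors from these reads cover counting only. Within a group, libraries differed beyond counting (chi-square per gene 9.16 to 51.8), so none is a copy of another; whether they are separate mice is not shown by this. The fit was also run on simulated data in which only a small part of the genes changed. These data differ in that, so the simulation is no support for the calls given here.

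Members, lists and ratios were chosen with earlier results of these data known. All members are named; of each list, up to 4 called genes without overlap between groups and with the smallest p are named, or else the most abundant. Lists of other cell types are given mainly by their sums. Erg in CNV against untreated was named after its values were seen. Some lists overlap in genes. Alternatives covered pseudocount, filters, scaling, variance model, array weights, voom, the replicate block and leaving out each library.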

Additional observations from a re-analysis of the deposited data

How the results depend on the processing

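The number of members passing was 1 in CNV against untreated, 0 in BetP-Gel@Ran against CNV and 2 in BetP-Gel@Ran against untreated. Leaving out 1 library at a time gave 0 to 1, 0 to 1 and 1 to 2. For CNV against untreated it was 0 with no filter, with a filter of 5 FPKM (where Cldn5 was not tested), with limma voom under either filter and with reads scaled to their own library total, and 2 with the replicate block (Cldn5 and Plvap). For BetP-Gel@Ran against CNV it was 1 with array weights (Tjp1) and 1 with the replicate block (Plvap). Against untreated, BetP-Gel@Ran gave 1 with a filter of 5 FPKM and 1 with limma voom under either filter. The cause of these changes was not tested, other than fewer genes at 5 FPKM. Voom on genes with at least 10 reads and own-total scaling were added after the data were seen. Tjp1 in BetP-Gel@Ran against untreated passed under every alternative run. The labels do not link libraries of the same replicate number. Deviations of same-numbered libraries correlated at -0.148 to 0.0841, and 1 of 9 libraries correlated best with its own number. With so few libraries these values cannot exclude a link. The replicate block gave 6048, 1398 and 4467 calls over all genes, against 6281, 1983 and 4813.

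Some differences that did not pass changed sign. In CNV against untreated, Pecam1 was -0.014 with quantile normalization and -0.059 to 0.10 with libraries left out. Eng was -0.027 with quantile normalization and -0.053 to 0.044, or -0.0086 without untreated replicate 1. Ocln was -0.018 to 0.18, or -0.0063 without untreated replicate 3. With libraries left out, BetP-Gel@Ran against CNV gave -0.037 to 0.15 for Pecam1 and -0.96 to 0.018 for Hba-a1. Likewise BetP-Gel@Ran against untreated gave -0.017 to 0.29 for Plvap, -0.0080 to 0.075 for Pdpn and -0.56 to 0.94 for Ccl21a (-0.39 without untreated replicate 3).

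Over all genes, calls in BetP-Gel@Ran against CNV ranged from 446 without CNV replicate 1 to 3362 with array weights; they were 466 and 464 without BetP-Gel@Ran replicate 2 or CNV replicate 2, 650 and 1195 without BetP-Gel@Ran replicate 3 or 1, 853 with no filter, 1189 with only the groups compared and 3215 without CNV replicate 3. BetP-Gel@Ran against untreated gave 3198 without BetP-Gel@Ran replicate 3, and CNV against untreated 3846 at 5 FPKM, where only 7863 genes were tested. Counts of genes passing in the lists moved too: over the alternatives, BetP-Gel@Ran against CNV gave 1 to 5 other endothelial, 1 to 4 barrier and 0 to 11 other junction genes; against untreated, BetP-Gel@Ran gave 2 to 7, 2 to 6 and 4 to 13, and CNV 3 to 9, 3 to 10 and 8 to 11. The share of called genes that were higher was 50.4% in CNV against untreated, and 62.3% with own-total scaling. For BetP-Gel@Ran against untreated it was 47.1%, and 63.6% with FPKM divided by its sum. Cldn5, Emcn, Cdh5 and Tie1 rested on 46 to 208 reads per library, which limits the differences that can be seen.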
